A study of Mus musculus with 12 samples.

Results

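The Clk genes are the 4 genes of the deposited table with the symbols Clk1, Clk2, Clk3 and Clk4, out of 15217 genes. They are a gene family chosen by symbol and selected on their read counts in all 6 groups and their new-to-total ratios in the 8 libraries with label, so the values of the 4 genes below are a description and carry no test. The libraries came from NIH-3T3, an established mouse fibroblast line labelled wild type. The groups were tube without 4-thiouridine (4sU), tube with 200 µM 4sU, tube with 800 µM 4sU, and methanol-fixed without 4sU, with 200 µM and with 800 µM, each with libraries A and B. The analogue enters RNA as it is transcribed, and labelling lasted 2 h. All groups went through SLAM-seq, in which iodoacetamide alkylates 4sU so that it is read as C. The reaction took place on purified RNA in a tube or inside methanol-fixed cells, and the labels' protocols give the fixed cells a hotter and shorter reaction, so that fixation, temperature and time cannot be told apart. Whether libraries A and B came from separate cultures is not in the labels, and p-values therefore measure the spread between these libraries, which may be technical.

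CLK proteins are nuclear kinases of the CMGC group that phosphorylate serine, threonine and tyrosine. Their best known substrates are the SR proteins, splicing factors with a domain rich in arginine and serine, whose phosphorylation releases them from nuclear speckles and changes which exons and introns are spliced. SRPK kinases phosphorylate SR proteins mainly in the cytoplasm, CLKs in the nucleus, and protein phosphatase 1 can remove the phosphates. CLK transcripts are themselves a textbook case of splicing control, since a large part of the Clk1 and Clk4 RNA keeps introns and stays in the nucleus until those introns are removed.

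The family is named LAMMER after a motif in its kinase domain, and the coding stretch around it shows how the members differ. The sequences below are 60 bases of the coding strand of the longest coding transcript in GENCODE M21 (GRCm38), 5′ to 3′, with the 18 bases of the motif in capitals.
Clk1: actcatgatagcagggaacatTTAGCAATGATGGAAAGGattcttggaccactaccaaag
Clk2: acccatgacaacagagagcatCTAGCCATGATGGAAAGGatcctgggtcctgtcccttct
Clk3: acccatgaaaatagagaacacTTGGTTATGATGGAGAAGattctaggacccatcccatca
Clk4: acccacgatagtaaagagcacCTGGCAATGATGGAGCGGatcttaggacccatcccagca
The motif spells LAMMER in Clk1, Clk2 and Clk4 and differs from that spelling in Clk3. Over the whole coding sequence Clk1 and Clk4 were the closest pair, with 77.9% of 479 aligned residues and 73.9% of 1437 aligned coding bases identical. The other pairs had between 51.3% and 60.9% of their residues in common. Of the stretches of 50 bases in the members' transcripts, 6 of 8440 in Clk1, 6 of 5680 in Clk2 and 11 of 6225 in Clk4 also occur in another gene. In Clk3 1213 of 8633 do, of which 1194 are shared with Edc3 on the opposite strand. Genes that share only a few stretches were not listed, so whether members share some with each other is not shown. How reads with converted bases were aligned is not given.

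All 4 genes have introns that annotated transcripts keep. Clk1 (ENSMUSG00000026034, chr1:58410189-58424066, minus strand) has 13 transcripts in GENCODE M21, of which 7 are retained-intron transcripts and 2 are targets of nonsense-mediated decay. Clk4 (ENSMUSG00000020385, chr11:51261730-51281766, plus strand) has 14, of which 7 keep introns and 3 are decay targets. Clk2 (ENSMUSG00000068917, chr3:89164795-89176921, plus strand) has 11 and Clk3 (ENSMUSG00000032316, chr9:57750624-57765860, minus strand) has 9, with 4 retained-intron transcripts and 1 decay target each. Among 14177 protein-coding genes of the table the median was 1 retained-intron transcript, 11.8% of genes had at least 4 and 2.17% had at least 7.

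For each gene 1 of the introns kept in its longest transcript is shown, and whether these lie at matching places was not computed. The first bases of this intron are shown because they are a part of these transcripts that varies between the pairs of genes. Each line gives 10 exon bases and the first 20 intron bases on the gene's strand, with the first GT of the intron in capitals (introns read in the longest transcript, GRCm38).
Clk1, start of the intron at chr1:58419734-58420120: agtgcaagatGTatagaatatttttcaaca
Clk4, start of the intron at chr11:51273169-51273559: agagcaagatGTatagaatatttttcaaca
Clk2, start of the intron at chr3:89169703-89170048: caagagcgatGTacaagccaaatcgtaaca
Clk3, start of the intron at chr9:57758351-57758626: caagagcgatGTacagccacctttcgtaaa
The Clk1 and Clk4 edges matched at 29 of 30 bases and those of Clk2 and Clk3 at 19, against 14 or 15 for the other pairs. The intron begins with GTATAG in Clk1 and Clk4, with GTACAA in Clk2 and with GTACAG in Clk3. Among 10621 introns that are kept whole in an annotated exon of 4916 protein-coding genes, 0.188% begin with GTATAG, 0.989% with GTACAA or GTACAG, and 22.4% with GTAAGT or GTGAGT. The intron was picked out after the sequences had been compared. Other introns kept in the same transcripts begin with GTGAGT in Clk2 and Clk3, with GTAAGT in Clk4, and with GTATGA in Clk1 and Clk4. The rare starts above are therefore not those of all kept introns of the family.

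These introns bear on the read counts, because the deposited gene length was that of the longest transcript, and in all 4 genes that transcript is a retained-intron one, as in 12.9% of protein-coding genes. Annotated introns made up 25.9% of the 4865 bases deposited as the length of Clk1, 32.8% of 3168 for Clk2, 57.5% of 4130 for Clk3 and 55.9% of 3543 for Clk4. No label or file header tells how reads in such introns were counted, so each value below is for all RNA of the gene, spliced or not.

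Clk1 was lower in every fixed library than in every tube library. Levels are given as CPM (reads of a gene relative to the library's total, scaled with TMM factors, as cpm in edgeR). Tube libraries A and B had 61.1 and 80.3 CPM without 4sU, 77.4 and 52.6 with 200 µM, and 69.0 and 71.9 with 800 µM. Fixed libraries A and B had 45.1 and 50.5 CPM without 4sU, 50.9 and 46.9 with 200 µM, and 50.5 and 44.0 with 800 µM. The 6 fixed libraries lay between 44.0 and 50.9 CPM and the 6 tube libraries between 52.6 and 80.3, with no overlap. How many of all genes separate in this way was not counted, for Clk1 or for the members below. In the edgeR comparison given below, 31.4% of all genes were called between the procedures without 4sU. That share is by another measure and on fewer libraries, so the separation is not shown to be particular to Clk1. Within a procedure the libraries with and without 4sU overlapped at both doses.

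Clk2 had its highest group means in tubes with 4sU and its lowest in fixed cells with 4sU. Its tube libraries A and B had 43.8 and 30.7 CPM without 4sU, 47.3 and 46.1 with 200 µM, and 45.4 and 40.4 with 800 µM. In fixed cells it had 30.8 and 30.9 CPM without 4sU, 26.3 and 21.6 with 200 µM, and 19.7 and 28.5 with 800 µM. All 4 labelled tube libraries were thus above all 6 fixed libraries, while unlabelled tube library B was level with the unlabelled fixed libraries.

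Clk4 had the smallest relative range of the family, 1.65 times from the lowest to the highest library, while that of Clk3 (1.85) was close to that of Clk1 (1.82). Clk3 had 12.99 and 17.8 CPM in tubes without 4sU, 11.6 and 16.1 with 200 µM, and 10.96 and 14.9 with 800 µM. In fixed cells it had 15.4 in both libraries without 4sU, 12.6 and 9.64 with 200 µM, and 17.7 and 12.2 with 800 µM. Its procedures overlapped throughout, and replicates of some groups differed as much as groups did. In fixed cells both Clk3 libraries with 200 µM lay below both without 4sU, and the share of all genes that separate so was not counted. Clk4 had 33.9 and 35.1 CPM in tubes without 4sU, 36.3 and 42.0 with 200 µM, and 35.3 and 41.0 with 800 µM. In fixed cells Clk4 had 30.4 and 31.7 CPM without 4sU, 31.3 and 37.6 with 200 µM, and 25.5 and 30.6 with 800 µM. At each dose and without 4sU the tube mean of Clk4 was above the fixed mean, but at 200 µM the libraries overlapped. Bulk libraries cannot tell fewer cells from less RNA per cell, and a CPM is a share of the library.

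**Figure D1:**
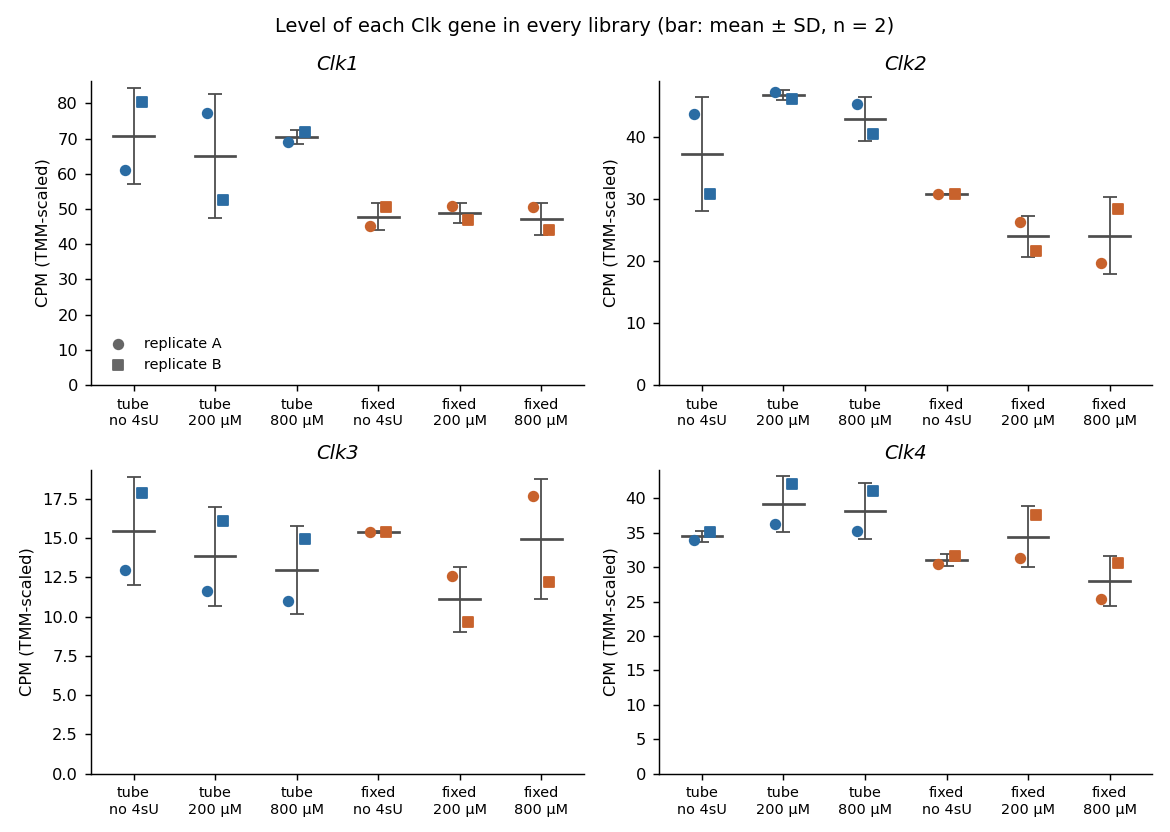
Each panel plots the level of 1 gene in TMM-scaled CPM (y axis, from 0) in the 6 groups (x axis), with library A as a circle, library B as a square, tube in blue, fixed in orange, and the mean ± SD (n = 2) as a bar. The 6 fixed libraries of Clk1 lie between 44.0 and 50.9 CPM, below its 6 tube libraries, while the tube and fixed libraries of Clk3 overlap.

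Compared per length, Clk3 was the lowest of the family in 12 of 12 libraries. Per kb of the deposited length the medians over 12 libraries were 10.6 CPM for Clk1, 9.74 for Clk4, 9.73 for Clk2 and 3.38 for Clk3. The order of the first 3 varied between libraries, with Clk1 above Clk2 in 8 of 12 and above Clk4 in 10 of 12, so they do not differ beyond their spread. Per kb of the longest coding transcript, a scale added after the deposited lengths had been seen, the medians were 28.8 for Clk1, 17.7 for Clk4, 14.3 for Clk2 and 5.60 for Clk3, and Clk1 was the highest in 12 of 12 libraries. The median ratio of Clk1 to Clk2 thus went from 1.07 on the deposited length to 1.96 on the coding length.

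The question of the first comparisons was whether 4sU itself changes gene levels, with each procedure's libraries without 4sU as the control. In edgeR's quasi-likelihood fit over 11080 genes, with a Benjamini-Hochberg adjusted p under 0.05 as the threshold, none of the 4 Clk genes was called for 200 µM in tubes, where 3.75% of all genes were. None of the 4 was called for 800 µM in tubes, against 1.87% of all genes, for 200 µM in fixed cells, against 0.812%, or for 800 µM in fixed cells, against 2.66%. Since the members were chosen with these counts known, nothing is read from those counts.

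Clk1 stayed within 1 SE of no change in all 4 comparisons. Its log2 fold change against no 4sU was -0.13 (SE 0.18) at 200 µM and -0.01 (SE 0.18) at 800 µM in tubes. In fixed cells Clk1 had 0.03 (SE 0.18) at 200 µM and -0.02 (SE 0.18) at 800 µM. The tube value at 200 µM rested on spread replicates, and went to -0.43 without tube 200 µM library A and to 0.13 without library B.

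Clk2 had values above 0 in tubes and below 0 in fixed cells at both doses of 4sU. In tubes its log2 fold change was 0.33 (SE 0.20) at 200 µM and 0.21 (SE 0.19) at 800 µM. In fixed cells it was -0.36 (SE 0.20) and -0.35 (SE 0.20). Single libraries set part of this: without the unlabelled tube library B the tube values were 0.10 and -0.03, without the unlabelled tube library A they were 0.61 and 0.49, and without fixed 800 µM library A the last value was -0.06. The difference between the procedures, fixed minus tube, was -0.70 (SE 0.28) at 200 µM and -0.56 (SE 0.28) at 800 µM on the log2 scale, and -0.24 at 800 µM without fixed 800 µM library A. That library stood apart from the others in a principal component analysis and had the lowest TMM factor (0.835), and the part of this in the Clk2 value was not tested beyond leaving it out.

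For this difference edgeR called 0% of genes at 200 µM and 0% at 800 µM, while 993 and 654 genes had an unadjusted p under 0.05 and DESeq2 called 11 and 0. Clk1 had differences of 0.16 (SE 0.25) and -0.01 (SE 0.25), and Clk4 of -0.04 (SE 0.24) and -0.29 (SE 0.24), the latter -0.07 without fixed 800 µM library A. For Clk3 the differences were -0.31 (SE 0.38) and 0.21 (SE 0.38), with opposite signs at the doses.

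Clk4 had log2 fold changes of 0.19 (SE 0.17) at 200 µM and 0.14 (SE 0.17) at 800 µM in tubes. In fixed cells Clk4 had 0.15 (SE 0.17) at 200 µM and -0.14 (SE 0.17) at 800 µM, the latter 0.03 without fixed 800 µM library A. Clk3, the member with the fewest reads (54.0 to 102.5 per library), had -0.15 (SE 0.27) and -0.26 (SE 0.27) in tubes, and -0.47 (SE 0.27) and -0.05 (SE 0.27) in fixed cells. Of the 16 fold changes of the family with 4sU, the -0.47 of Clk3 at 200 µM in fixed cells lay farthest from 0. In that comparison 11.6% of all genes had a lower value.

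**Figure D2:**
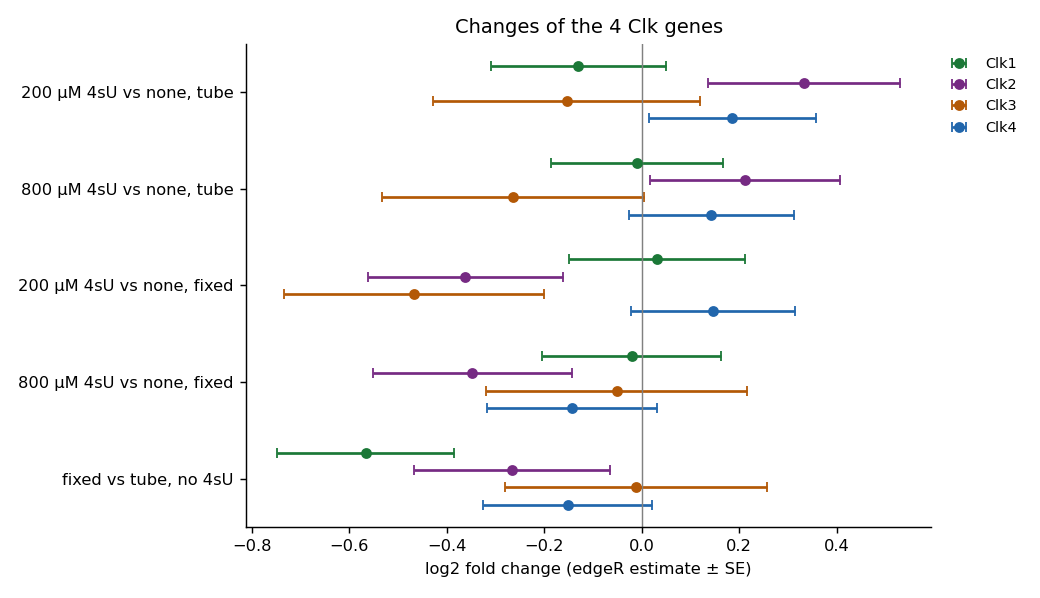
The x axis is the log2 fold change and its SE from the edgeR fit of 12 libraries, and each row is 1 comparison with the 4 genes in different colours. Clk2 lies right of 0 in tubes (0.33 and 0.21) and left of 0 in fixed cells (-0.36 and -0.35), and Clk1 has its lowest value, -0.57, in fixed against tube without 4sU.

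Fixed cells were then compared with tubes without 4sU, which sets the procedures side by side without label. Clk1 had 47.8 ± 3.85 CPM in fixed cells and 70.7 ± 13.6 in tubes (SD, n = 2), a log2 fold change of -0.57 (SE 0.18). Clk2 had 30.8 ± 0.0407 CPM against 37.3 ± 9.23 and a log2 fold change of -0.27 (SE 0.20). Clk4 had 31.0 ± 0.872 CPM against 34.5 ± 0.826 and a log2 fold change of -0.15 (SE 0.17). The 2 pairs of libraries of Clk4 did not overlap, and the share of all genes for which this holds was not counted. Clk3 had 15.4 ± 0.0362 CPM against 15.4 ± 3.43, with a log2 fold change of -0.01 (SE 0.27). Here 1 of the 4 members, Clk1, passed the threshold, and so did 31.4% of all genes, which makes that count unremarkable.

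Scaling mattered for this comparison. When the TMM factors came from 3663 genes with a low new-to-total ratio, the median of all genes moved from -0.01 to -0.27, and the called genes went from 1796 higher and 1684 lower to 953 and 3135. Clk1 then had -0.83, Clk2 -0.53 and Clk4 -0.42 on the log2 scale, which is below the moved median by about as much as before. Without the unlabelled tube library B the Clk1 value was -0.35. The Clk2 value was 0.01 without the unlabelled tube library A and -0.50 without library B.

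Genes annotated like Clk1 and Clk4 had lower values in fixed cells as a class. The 286 tested genes with at least 7 retained-intron transcripts had a median log2 fold change of -0.35 (quartiles -0.69 and 0.07) in fixed against tube without 4sU, and 98 of them fell and 23 rose. The medians were -0.09 for 1258 genes with 4 to 6 such transcripts, -0.00 for 5096 genes with 1 to 3, and 0.04 for 4225 genes with 0. Clk1 (-0.57) lay below the median of its class and Clk4 (-0.15) above it. Clk3 (-0.01) lay above the median of genes with 4 to 6 and Clk2 (-0.27) below it. This grouping was chosen after the members' annotation had been read, and it is given with no test.

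**Figure D3:**
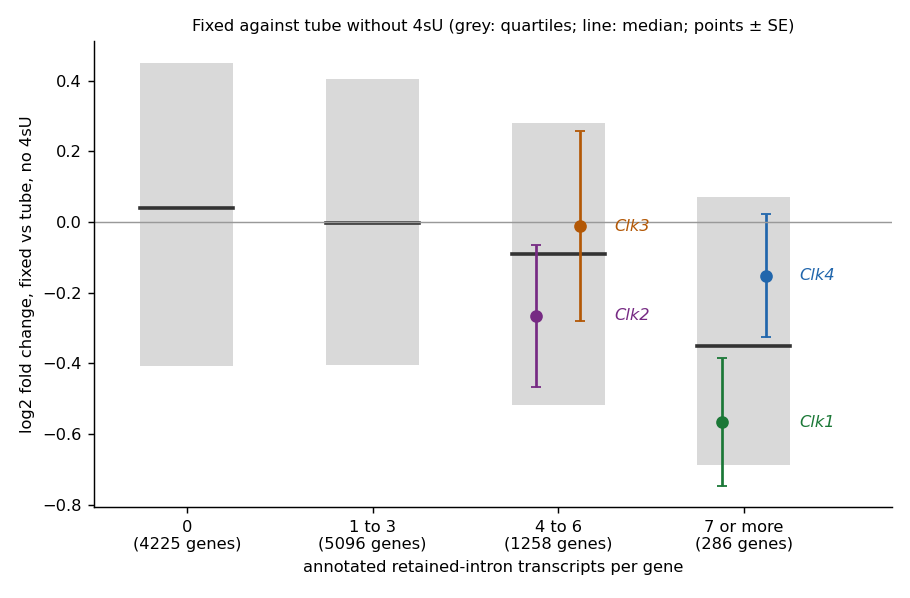
The y axis is the log2 fold change of fixed against tube without 4sU, and the x axis groups genes by their number of annotated retained-intron transcripts. Grey boxes are quartiles with the median as a line, from 0.04 in genes with 0 to -0.35 in genes with 7 or more, and coloured points are the Clk genes ± SE.

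The ratios show how young the Clk RNA was. The new-to-total ratio is the authors' estimate, from the conversions in the reads, of the share of a gene's RNA made during the 2 h of labelling. It is given as the most probable (MAP) value with 0.05 and 0.95 quantiles. Unlabelled libraries have no ratio, so there is no background measured the same way, and the number of converted reads behind each ratio is unknown.

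Clk1 had a MAP ratio of 100.0% in 8 of 8 libraries. Of 5538 genes with at least 100 reads in each of the 8 libraries it was the 1 gene for which this held, and 5 genes reached that value in 7 libraries. The 0.05 quantile of Clk1 was 94.3% and 93.97% in tube 200 µM libraries A and B, and 97.1% and 96.4% in tube 800 µM. In fixed 200 µM libraries A and B it was 96.32% and 93.95%, and in fixed 800 µM 84.75% and 96.18%. Fixed 800 µM library A, with 246.0 reads of Clk1, was the loosest estimate. A MAP of 100.0% is the end of the scale and lies above the 0.95 quantile in each library, so the quantiles describe the gene better than the MAP does. By the mean of the 0.05 quantile, 24 of the 5538 genes stood above Clk1.

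Clk4 was nearly as new. Its MAP ratio was 100.0% and 95.4% in tube 200 µM libraries A and B, 97.5% and 94.9% in tube 800 µM, 100.0% in both fixed 200 µM libraries, and 93.9% and 92.0% in fixed 800 µM. Its mean over the 8 libraries, 96.7% ± 3.11 (SD), was above that of 98.7% of the 5538 genes. The quantile intervals of Clk1 and Clk4 were apart in 0 of 8 libraries.

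Clk2 and Clk3 had lower mean ratios, with more spread between libraries. Clk2 had 86.3% and 98.3% in tube 200 µM libraries A and B, 88.9% and 92.7% in tube 800 µM, 100.0% and 89.4% in fixed 200 µM, and 73.1% and 94.3% in fixed 800 µM. The lowest of these, fixed 800 µM library A, had 96.0 reads and quantiles of 53.2% and 89.4%. Clk3 had 75.6% and 76.5% in tube 200 µM, 75.7% and 86.7% in tube 800 µM, 100.0% and 96.2% in fixed 200 µM, and 77.8% and 85.5% in fixed 800 µM. The quantile interval of Clk3 lay wholly below that of Clk1 in 5 of 8 libraries, and that of Clk2 did so in 2 of 8. Those of Clk2 and Clk4 were apart in 0 of 8 libraries. Clk2 and Clk3 had fewer than 100 reads in at least 1 library, and so stayed out of the fit on ratios.

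**Figure D4:**
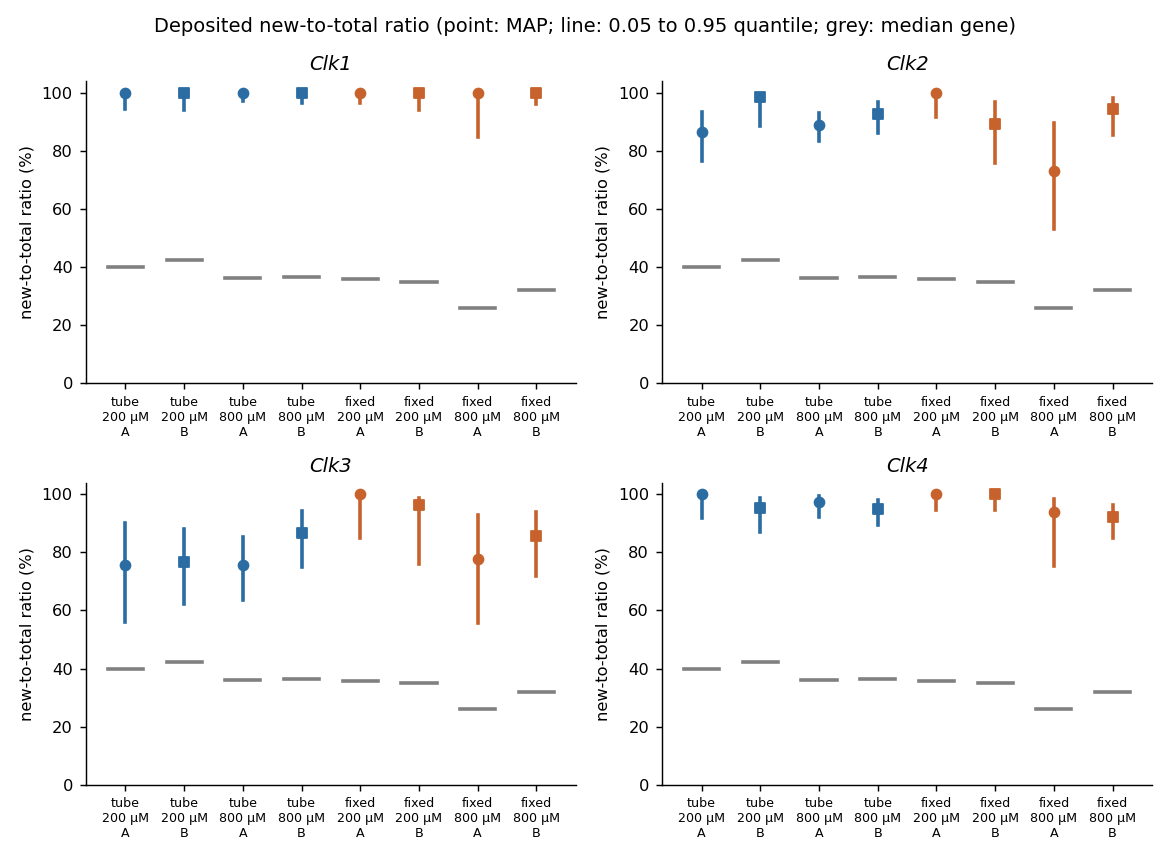
Each panel plots the new-to-total ratio of 1 gene in percent (y axis, from 0) in the 8 labelled libraries (x axis), with the MAP as a point, the 0.05 to 0.95 quantiles as a line and the median of 5538 genes as a grey dash, tube in blue and fixed in orange. The Clk genes lie between 73.1% and 100.0%, far above medians of 26.0% to 42.3%.

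The median gene of these libraries had a MAP ratio of 26.0% to 42.3%, lowest in fixed 800 µM library A, and the values of all 4 Clk genes were above it in each library. If RNA is at steady state and decays at a constant rate, a ratio converts to a half-life. Under that assumption the 0.05 quantiles of Clk1 give upper limits of 23.5 to 44.2 min, with a median of 27.3 min over the 8 libraries, and those of Clk4 limits of 28.4 to 59.3 min. For Clk2 the limits were 33.8 to 109.7 min and for Clk3 43.8 to 101.9 min. The median gene, from its mean MAP, had a half-life of 190.8 min.

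The ratio of Clk4 was 97.5% and 94.9% in tubes and 93.9% and 92.0% in fixed cells at 800 µM, with no overlap, while at 200 µM the libraries overlapped. The share of all genes whose ratios do not overlap was not counted. On the logit scale the fixed-minus-tube difference of Clk4 was 1.93 (SE 1.47) at 200 µM and -0.70 (SE 1.47) at 800 µM. The value at 200 µM rested on tube library B, the 1 library of the 4 below 100.0%: it was 3.87 without tube library A and 0 without tube library B. For Clk1 no difference can be estimated from MAP values that are all at the end of the scale. With the deposited mean in place of the MAP it was -1.91 (SE 3.99) at 800 µM. That value rests on fixed 800 µM library A, with a mean of 95.64%, while the other libraries had 100.0%, the end of the scale. The limma fit called 0% of the 5538 genes at 200 µM and 0% at 800 µM, with 1056 and 1123 genes at an unadjusted p under 0.05. DESeq2 cannot be used on fractions. With a minimum of 200 reads limma called 9 and 8 genes.

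AU-rich elements are known from many short-lived transcripts, and a core pentamer of them was counted in these genes. The 3′ UTR of the longest coding transcript holds the pentamer ATTTA (sense strand, overlaps counted) at 1 place in Clk1, Clk2 and Clk3 and at 0 places in Clk4. Over 14122 protein-coding genes the median was 1, and 67.1% of genes had at least 1. The 3′ UTRs were 197 bases long in Clk1, 342 in Clk2, 236 in Clk3 and 347 in Clk4, against a median of 1066.

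The 316 genes with a mean MAP ratio of at least 90%, which include Clk1 and Clk4, had a median log2 fold change with 4sU of 0.04 at 200 µM and 0.03 at 800 µM in tubes. In fixed cells the medians were -0.06 at both doses. The share of this class that was called was 10.8% at 200 µM and 13.9% at 800 µM in tubes, and 7.59% and 15.5% in fixed cells. Of all 11080 tested genes 3.75%, 1.87%, 0.812% and 2.66% were called. These bases are unlike, because the class was drawn only from the 5538 genes with at least 100 reads in each labelled library. The share called among those 5538 was not counted, so the part of depth in the difference was not tested. In fixed against tube without 4sU the median of this class was -0.25, and 109 of the 316 fell while 28 rose.

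The kinases that share substrates or ancestry with the CLKs showed no called change with 4sU. Of 16 listed SRPK, DYRK, HIPK, PRP4 and cyclin-dependent kinases 14 were tested, and 0 rose and 0 fell in each of the 4 comparisons with 4sU by edgeR. At an unadjusted p under 0.05 edgeR had 3 and 2 of them in tubes and 0 and 2 in fixed cells (200 and 800 µM), and DESeq2 called 1, Dyrk2, at both doses in tubes, where its edgeR log2 fold changes were -0.49 and -0.51. Their medians lay between -0.15 and 0.06, beside medians of -0.00 to 0.03 for all genes. In fixed against tube without 4sU 8 of the 14 fell and 0 rose, with a median of -0.58. There 31.4% of all 11080 genes were called, 1684 lower and 1796 higher. The calls of Cdk11b, Cdk13, Dyrk1a, Hipk4 and Srpk2 were each lost on leaving out 1 or another library, those of Dyrk2, Hipk2 and Cdk12 in no alternative run. Dyrk2, a kinase of the same group, fell from 126.1 ± 6.78 CPM in tubes to 55.8 ± 9.91 in fixed cells (log2 fold change -1.17, SE 0.14, edgeR adjusted p 1.46e-05). Srpk2, which phosphorylates SR proteins, fell by 0.51 on the log2 scale (SE 0.16, edgeR adjusted p 0.0207). That call was lost without the unlabelled tube library B and without either unlabelled fixed library. All 8 genes were named after their values had been seen.

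Among the listed SR proteins and other splicing factors, Rsrp1, a protein rich in arginine and serine, fell with 4sU in both procedures. Whether CLKs phosphorylate it was not tested. Of 32 SR proteins and other factors with an RS domain 31 were tested. Rsrp1 went from 175.2 ± 3.31 CPM without 4sU to 123.7 ± 1.02 at 200 µM and 109.9 ± 0.908 at 800 µM in tubes (log2 fold changes -0.50 and -0.67, SE 0.13 for both, edgeR adjusted p 0.0384 and 0.0108). In fixed cells Rsrp1 went from 141.5 ± 17.5 CPM to 87.1 ± 5.23 and 79.5 ± 4.26 (log2 fold changes -0.70 and -0.83, SE 0.13 for both, edgeR adjusted p 0.0169 and 0.00246). Each of the first 3 calls was lost without any 1 of the 4 libraries compared. The call at 200 µM in tubes was also lost with replicate (A or B) added to the fit. The call at 800 µM in fixed cells was lost without unlabelled fixed library B or with only the groups compared in the fit.

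Pnisr, an RS-domain protein, was called in 1 comparison with 4sU. In tubes Pnisr went from 107.4 ± 23.9 CPM to 59.4 ± 14.5 at 200 µM (log2 fold change -0.86, SE 0.19, edgeR adjusted p 0.0208), a call lost without tube 200 µM library B or unlabelled tube library B. The other RS-domain factors were not called with 4sU by edgeR, while DESeq2 also called U2af1 at 200 µM in tubes and Srsf3 at 800 µM in fixed cells, and list medians lay between -0.14 and 0.05. In fixed against tube without 4sU 10 of the 31 fell and 2 rose, with a median of -0.28. Of all 11080 genes 31.4% were called, 1684 lower and 1796 higher, so the calls of this list lay more to the lower side. The calls of Rsrc1, Son, Srrm1, Srsf9 and U2af2 were lost on leaving out single libraries, and that of U2af2 also with the low-ratio scaling (genes named after their values had been seen). Of phosphatase 1 and its regulators, all 7 tested, Ppp1ca, a catalytic subunit, rose at 200 µM in tubes from 456.9 ± 15.3 to 660.7 ± 3.36 CPM (log2 fold change 0.53, SE 0.12, edgeR adjusted p 0.0203), a call lost with the low-ratio scaling and without any 1 of the 4 libraries. In fixed against tube without 4sU 3 of the 7 rose and 1 fell, with a median of 0.35, beside the same 31.4% of all genes. Of these the Ppp1cb call was lost with the low-ratio scaling and on leaving out any of 3 libraries.

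Clk1 had the highest ratio among the members and lists, and Ppp1r10 the next. The mean MAP ratio over 8 libraries had a median of 47.8% for 9 kinases with enough reads, from 42.2% ± 4.40 for Hipk1 to 91.3% ± 7.13 for Dyrk2. For 28 RS-domain factors the median was 56.6%, from 22.0% ± 7.27 for Rsrc1 to 91.4% ± 5.26 for Rsrp1. The 7 genes of the phosphatase had a median of 36.1%, from 13.7% ± 1.86 for Ppp1ca to 97.9% ± 2.39 for Ppp1r10, a nuclear targeting subunit, against 96.7% for Clk4. All genes with enough reads had a median of 35.3%.

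The members did not share 1 pattern across the 12 libraries. Pearson's r of log2 CPM was 0.64 for Clk2 and Clk4, 0.59 for Clk1 and Clk2 and 0.45 for Clk1 and Clk4. Within the 6 fixed and the 6 tube libraries Clk1 and Clk2 had -0.31 and -0.52, and Clk1 and Clk4 had -0.27 and -0.42, so their pooled values rest on the step between procedures. Clk2 and Clk4 had 0.16 and 0.21 within them. Pooled over 12 libraries Clk3 had 0.08 with Clk1, -0.09 with Clk2 and -0.24 with Clk4. The genes most like each member, by r over 12 libraries among 6722 genes, were Lman1 (0.97), Bcl2 (0.96) and Zc3h11a (0.96) for Clk1, and Mef2d (0.97), Npepps (0.95) and Cdc14b (0.94) for Clk2. For Clk3 they were Trak2 (0.88), Ankrd1 (0.85) and Lrrc40 (0.84), and for Clk4 Smg5 (0.93), Arfgef2 (0.92) and Ankib1 (0.90). These are descriptions, and the libraries share depth and procedure.

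Clk3 overlaps Edc3, a gene for an mRNA decapping factor, on the opposite strand. Of the 50-base stretches in Clk3 transcripts 13.8% also occur in Edc3 on that strand, and no label or file header tells whether reads were counted by strand, so the Clk3 values are uncertain. That share is of sequence and not of reads, and the reads that could come from Edc3 were not measured. Edc3 had 22.4 and 26.6 CPM in tubes and 33.8 and 34.5 in fixed cells without 4sU. With 200 µM it had 26.2 and 33.3 in tubes and 32.5 and 31.7 in fixed cells. With 800 µM it had 25.1 and 19.8 in tubes and 24.2 and 30.5 in fixed cells, so the procedures overlapped at both doses. The part of Edc3 in the Clk3 values was not tested. For Clk1, Clk2 and Clk4 the share of such stretches found in any other gene was 0.071%, 0.106% and 0.177%.

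Over the whole series the libraries held 3629634 to 7762635 reads assigned to genes, and replicates correlated at 0.976 to 0.986. Fibroblast markers were present for 8 of 8 genes, at 17236 to 19626 CPM in sum. Epithelial and endothelial markers summed to at most 1.41 CPM, blood markers to 3.05 to 10.0 and neural markers to 2.04 to 7.71, and the part of the latter in any Clk value was not tested.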

How the data were processed

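RNA-seq libraries of NIH-3T3 cells were analysed from 1 table in which the authors give, per gene and library, read counts, which are expected counts since 16.2% to 22.0% of a library's values were fractional, and, for 8 labelled libraries, the new-to-total ratio as a fraction. The deposited alpha and beta are scores of its beta distribution and were used as a check. Tools named in the submitters' processing notes are STAR 2.7.10b, Bowtie2 2.3.0 and cutadapt, with no roles, and the build, annotation and counting rules used by the authors are not given there or in the file headers. The deposited gene length, which per the file headers is in the table, was used for levels per kb.

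The deposited mean of the ratio was above the deposited 0.95 quantile in 9 of 32 member values. It was within 0.001 of alpha over alpha plus beta for 51.8% of values in the table. The MAP has the first fault too, since in 13 of 32 member values it was 100.0%, above the 0.95 quantile. How the MAP compares with alpha and beta is not reported. MAP values are given with quantiles, a choice made after these values had been seen. Counts were rounded and fitted with edgeR 4.0.16 (1 fit of 12 libraries in 6 groups, TMM, filterByExpr with a minimum count of 10, quasi-likelihood F test, Benjamini-Hochberg over 11080 genes). Common variation was 12.3% (BCV). Logit MAP ratios, limited to 0.001 and 0.999, were fitted with limma 3.58.1 in genes with at least 100 reads in 8 libraries. Annotation and sequences are from GENCODE M21 (GRCm38), in which 15185 of 15217 genes matched. Identity was computed with MAFFT 7.526. DESeq2 1.42.0 was an alternative. On simulated counts edgeR recovered 188 of 200 genes changed by 2-fold in the 800 µM tube comparison over 10908 genes, with 9 false calls. The changed genes had a mean count over 100, and all genes were given the same spread. The simulation therefore does not show how smaller changes, or changes of genes with fewer reads such as Clk3, would be recovered.

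The members and lists were chosen with earlier results of these data known. All members were named. From the lists, genes past the threshold in comparisons with 4sU, at most 4 in each direction, and those with the highest and lowest ratio were named, and others are said to be chosen later. Samples were grouped by their labels. Alternatives were another normalization, tool, filter, sample set, ratio column and count minimum, a replicate block and each library left out. Promoter sequences of 3 members were searched for motifs and are not reported, because no value bears on them.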

Additional observations from a re-analysis of the deposited data

Results flagged for a closer look

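The response of Clk2 to 4sU went up in both tube libraries and down in both fixed libraries at 200 µM, each set against the mean of its unlabelled libraries, and the fitted difference of the log2 fold changes, fixed minus tube, was -0.70. The same held for Clk2 at 800 µM, with -0.56, and for Clk4 at 800 µM, with -0.29. Without fixed 800 µM library A these were -0.24 and -0.07. No test is given for these genes, because they were chosen with these counts known. How many of all genes have such opposite responses was not counted, so the pattern is not shown to be particular to the family. For this difference edgeR called 0% of genes at 200 µM and 0% at 800 µM.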

How the results depend on the processing

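The number of called genes depended on the processing. With no filter on low counts it was 854 and 482 in tubes and 252 and 816 in fixed cells (200 and 800 µM), and 76 and 24 for the difference between procedures. With only the groups compared it was 400 in tubes at 800 µM, 652 and 40 in fixed cells, and 11 for the difference at 200 µM. DESeq2 gave 575 in fixed cells at 800 µM and 11 for the difference at 200 µM. TMM factors from low-ratio genes gave 159 and 504 in fixed cells, and moved the median of all genes with 4sU by over 0.1 in tubes and at 800 µM in fixed cells (to -0.12, -0.10 and -0.13). They changed the split at 200 µM in tubes from 262 higher and 154 lower to 91 and 413. A minimum of 200 reads gave 9 and 8 genes for the ratio, and the deposited mean 8 at 800 µM.

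Leaving out 1 library gave 18 to 210 and 22 to 88 called genes in tubes, 2 to 9 and 24 to 1199 in fixed cells, 0 to 3 and 0 to 123 for the difference, 2151 to 2649 for fixed against tube, and 0 to 16 and 0 to 937 for the ratio. Where this leaves 1 library in a group, it is assumed to vary like the others. The counts of 1199 and 937 came without fixed 800 µM library B, leaving library A.

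A-and-B pairing was not borne out: deviations from the group means correlated at -0.10 to 0.09 between groups. With a replicate block the counts were 320, 177, 68 and 238 with 4sU, 0 and 0 for the difference, 3353 for fixed against tube, and 0 and 0 for the ratio. The Rsrp1 call at 200 µM in tubes was lost with the block (edgeR adjusted p 0.0505).

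Of 312 pairs of a member value and an alternative, 22 moved by over 1 SE and 34 had the other sign; 0 called values reversed. Depth limits Clk3 most, with 54.0 to 102.5 reads.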
